A study of Homo sapiens with 6 samples.

Results

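The AP-1 family transcription factors measured here were FOS, FOSB, FOSL1, FOSL2, JUN, JUNB, JUND, ATF3, BATF3 and MAFF. They were taken as every probe of the deposited table whose platform annotation names 1 of these 10 genes, which gave 14 probes, against 20046 genes named on the array and 47323 probes in all. The arrays held RNA from Rh30 cells, an established human line of alveolar rhabdomyosarcoma, a childhood tumour with features of skeletal muscle. In 3 samples (siP/CAF) the cells had been transfected with an siRNA against P/CAF, the lysine acetyltransferase and coactivator encoded by KAT2B, and in 3 samples with a scramble control siRNA, and RNA was taken after 72 h in both. Nothing in the labels states whether replicates came from separate cultures, and the p-values therefore reflect the spread among these samples alone, which may be technical. As RNA was taken from whole cultures, fewer cells expressing a gene and less RNA per cell cannot be told apart.

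AP-1 is a dimer of basic leucine zipper proteins. JUN proteins pair with each other or with FOS proteins, FOS proteins need a partner from outside their own group, and FOS and JUN dimers bind the element TGAGTCA, called the TRE. ATF proteins dimerise with JUN proteins on the related element TGACGTCA, called the CRE, whereas the small MAF proteins lack an activation domain and pair with the cap'n'collar factors. Many members are immediate-early genes, which are transcribed within minutes of a growth or stress signal, and JUN is known to restrain the muscle regulator MyoD in cultured myoblasts.

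The siRNA target was lower as labelled: KAT2B (probe ILMN_3243142) had deposited signals of 178, 172 and 136 on the siP/CAF arrays and of 749, 608 and 1093 on the control arrays, a 6.83-fold fall (limma with Benjamini-Hochberg adjustment, adjusted p = 1.91e-04). Between 20891 and 21421 probes were detected per array, and median signals lay between 79.1 and 89.7. The muscle markers MYOD1, MYOG and DES were detected on all 6 arrays, whereas the epithelial markers EPCAM and CDH1 and the blood cell marker PTPRC were detected on 0. Not every listed marker went this way. KRT8, 1 of 5 epithelial markers, and CD14 and PECAM1, 2 of 8 blood and endothelial markers, were detected on 3 or more arrays. The muscle marker MYF6 was not. Over the whole array 972 of 21232 tested probes were called at an adjusted p under 0.05 (4.58%), 438 of them higher (2.06%) and 534 lower (2.52%).

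Of the 14 family probes 11 passed the detection filter, which asked for detection (p under 0.05) on 3 or more arrays, and stood for 9 of the 10 genes. After siP/CAF, JUND and FOS fell, 1 of 3 MAFF probes rose, and the other 8 tested probes were not called. The 11 tested probes had a median log2 difference of -0.03, with 0.00 over all tested probes. The promoter windows of the 3 called genes are printed, with that of JUN for comparison, so that the elements named above can be seen in place. They run from 250 bases before to 50 bases after the gene start, on the strand of the gene, from RefSeq (GRCh38.p14), in which 8 of the 10 members matched. JUND is chr19:18281573-18281872 (minus strand), FOS chr14:75278578-75278877 (plus strand), MAFF chr22:38201744-38202043 (plus strand) and JUN chr1:58783998-58784297 (minus strand). Capitals mark the CRE, the TRE (TGAGTCA or TGACTCA), TGACATCA, which is a variant TRE known from the JUN promoter, and TGACG, the core of the CRE, all searched on both strands.
JUND: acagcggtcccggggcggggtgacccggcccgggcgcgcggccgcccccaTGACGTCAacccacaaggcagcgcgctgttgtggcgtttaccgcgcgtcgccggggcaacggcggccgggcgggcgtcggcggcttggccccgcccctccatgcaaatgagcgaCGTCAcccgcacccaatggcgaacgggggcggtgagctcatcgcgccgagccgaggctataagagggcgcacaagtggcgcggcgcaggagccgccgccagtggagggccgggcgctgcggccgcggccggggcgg
FOS: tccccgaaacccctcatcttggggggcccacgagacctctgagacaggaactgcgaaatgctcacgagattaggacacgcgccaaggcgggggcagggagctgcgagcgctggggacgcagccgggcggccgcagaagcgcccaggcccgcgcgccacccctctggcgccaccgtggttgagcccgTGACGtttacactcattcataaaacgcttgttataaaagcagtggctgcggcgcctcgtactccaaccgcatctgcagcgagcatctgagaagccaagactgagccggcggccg
MAFF: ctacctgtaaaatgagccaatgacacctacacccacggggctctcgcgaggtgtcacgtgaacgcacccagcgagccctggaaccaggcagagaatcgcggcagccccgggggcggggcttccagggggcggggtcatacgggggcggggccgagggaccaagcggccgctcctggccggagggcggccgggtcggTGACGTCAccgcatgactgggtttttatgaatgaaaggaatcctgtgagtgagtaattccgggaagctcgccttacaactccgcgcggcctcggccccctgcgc
JUN: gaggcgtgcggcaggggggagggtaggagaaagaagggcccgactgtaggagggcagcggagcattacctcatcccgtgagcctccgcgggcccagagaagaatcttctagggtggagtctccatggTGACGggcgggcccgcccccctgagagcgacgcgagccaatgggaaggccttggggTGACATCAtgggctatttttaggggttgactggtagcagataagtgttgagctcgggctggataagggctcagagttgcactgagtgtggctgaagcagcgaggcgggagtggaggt

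The JUND window holds 1 full CRE, starting 200 bases before the gene start, and a separate TGACG on the other strand. The MAFF window holds 1 full CRE, starting 54 bases before the start, and a window at the other MAFF start holds none of these elements. In the FOS window the capitals are a lone TGACG, 64 bases before the start. In the JUN window they are TGACATCA, 67 bases before the start, and a TGACG. A full CRE stands in 1.85% of 35116 windows of this length, a TRE in 4.95%, TGACATCA in 2.61% and TGACG in 24.6%; every full CRE also holds TGACG on both strands. These matches describe letters and say nothing of binding.

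Of the JUN proteins, JUND fell. JUND, which in cultured fibroblasts restrains proliferation, had deposited signals of 5909.8, 6733 and 5664 on the siP/CAF arrays and of 12344, 9124 and 10659 on the control arrays. The siP/CAF arrays all lay below the lowest control array. On the normalized log2 scale JUND averaged 12.54 ± 0.15 after siP/CAF and 13.42 ± 0.10 in control cells (SD, n = 3 each), a log2 difference of -0.87 with an SE of 0.15, or a 1.83-fold fall (limma, Benjamini-Hochberg adjusted p = 0.0132). The call was lost without siP/CAF array 1 (adjusted p = 0.0700) or without control array 1 (0.0605), at differences of -0.86 and -0.85.

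JUN itself, the most studied partner of FOS, had signals of 8038, 8553 and 8752 after siP/CAF and of 8283, 8083 and 8623 in control cells. The groups overlapped. Its log2 difference was -0.03 with a 95% interval from -0.37 to 0.31 (limma, Benjamini-Hochberg adjusted p = 0.957), and its sign turned to 0.016 when arrays were scaled to a common median. Changes within that interval are compatible with these 3 arrays a group, and the interval is not a detection limit.

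JUNB, an immediate-early member that can oppose JUN, had signals of 136, 150.3 and 145 after siP/CAF and of 175, 141 and 162 in control cells. Its log2 difference was -0.19, with an interval from -0.53 to 0.14, and was not called. JUND and JUN were set against each other within each array, a comparison chosen after their values were seen. The log2 value of JUND minus that of JUN was -0.46, -0.37 and -0.59 on the siP/CAF arrays and 0.61, 0.19 and 0.32 on the control arrays. The group means differed by -0.84, a description with no test, since the pair was picked for its values. Signals of different probes are not on a common scale of abundance, so the sign of these values does not rank JUND against JUN.

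**Figure D1:**
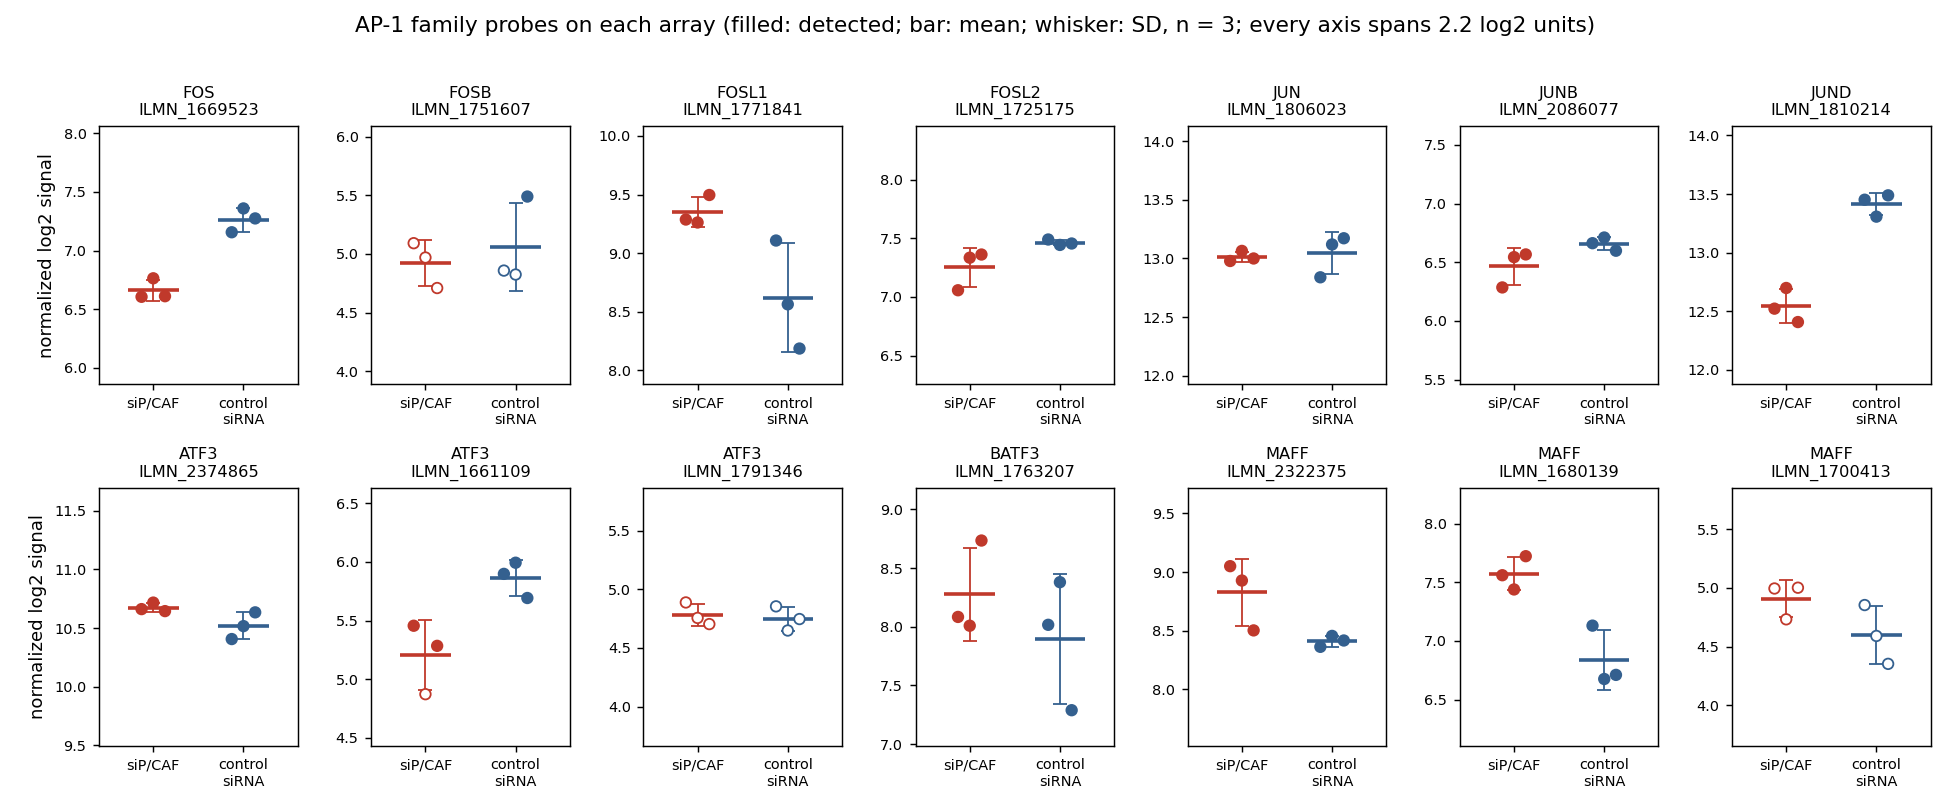
Normalized log2 signal of each of the 14 AP-1 family probes (vertical axes) on the siP/CAF arrays (red, left) and control siRNA arrays (blue, right); each point is an array, filled where the probe was detected, with the mean as a bar and the SD as a whisker (n = 3 each). JUND lies between 12.41 and 12.70 after siP/CAF and between 13.31 and 13.49 in control cells, while the 3 untested probes of FOSB, ATF3 and MAFF are open on nearly every array.

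Among the FOS proteins, FOS fell, and FOSL1 lay higher without passing the test. FOS, the founding immediate-early gene, had signals of 155, 165 and 148 after siP/CAF and of 223, 191 and 229 in control cells. These signals are close to background, since the dimmest detected probes read between 84.9 and 95.7 per array, but the groups did not overlap. FOS averaged 6.66 ± 0.09 after siP/CAF and 7.26 ± 0.10 in control cells on the log2 scale (SD, n = 3 each), a difference of -0.60 with an SE of 0.15, or 1.52-fold (limma, Benjamini-Hochberg adjusted p = 0.0482). The FOS call was lost when any 1 of the 6 arrays was left out (adjusted p from 0.0575 to 0.199), with differences from -0.66 to -0.55.

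FOSL1, which encodes FRA1, a FOS protein without the FOS activation domain, had signals of 666, 673 and 724 after siP/CAF. In control cells it had 701, 369.8 and 381. On these signals the first control array thus reached the level of the siP/CAF arrays, while the other control arrays were far below them. After normalization the groups did not overlap, with the first control array at 9.11 and the lowest siP/CAF array at 9.26. On the log2 scale FOSL1 averaged 9.35 ± 0.13 after siP/CAF and 8.62 ± 0.46 in control cells (SD, n = 3 each), and the difference of 0.73, with an interval from 0.23 to 1.23, was not called (limma, Benjamini-Hochberg adjusted p = 0.101). Without control array 1 the difference was 0.97 (adjusted p = 0.0520), and without control array 3 it was 0.51 (adjusted p = 0.168).

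FOSL2, which encodes FRA2, had signals of 189.9, 218 and 208 after siP/CAF and of 265, 199 and 251 in control cells. Its log2 difference was -0.21, with an interval from -0.55 to 0.13. FOSB had signals between 78.6 and 91.5 after siP/CAF and between 75.1 and 104 in control cells. With detection on 0 siP/CAF arrays and 1 control array, FOSB was not tested. Within arrays, FOSL1 minus FOS was 2.68, 2.50 and 2.88 on the log2 scale after siP/CAF and 1.95, 1.20 and 0.91 in control cells. That pair was also picked for its values, and the difference of 1.33 between the group means is a description with no test. Here too the values do not rank FOSL1 against FOS in abundance.

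**Figure D2:**
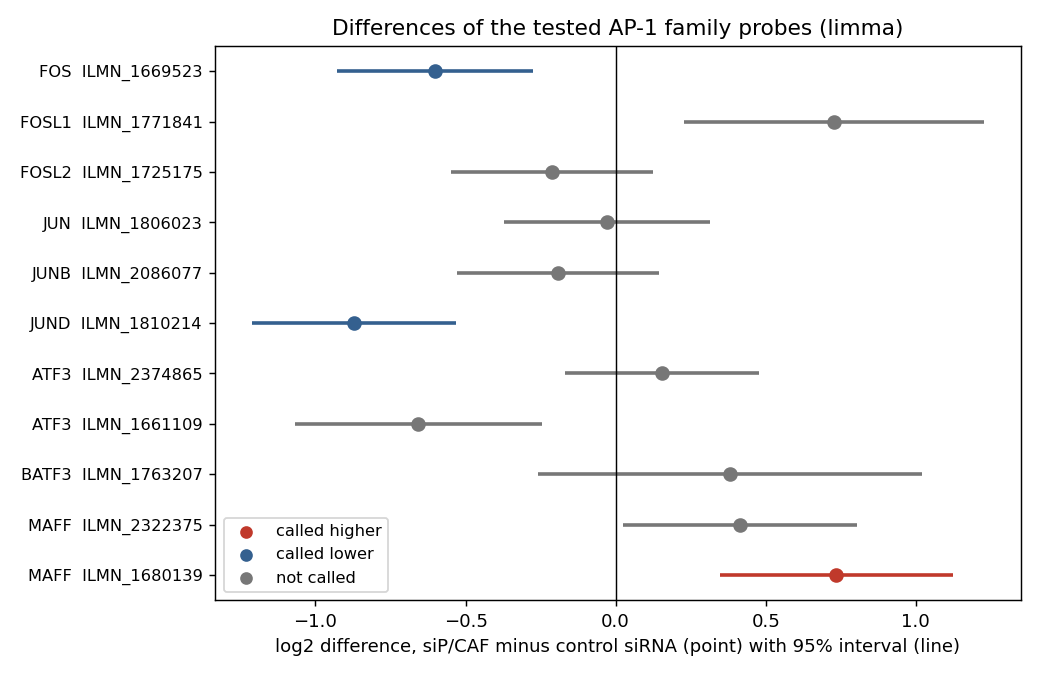
Log2 difference, siP/CAF minus control siRNA (horizontal axis), of the 11 tested AP-1 family probes, with points for the limma estimate and lines for the 95% interval (n = 3 arrays each); colour gives the call. JUND (-0.87) and FOS (-0.60) lie below 0, 1 MAFF probe (0.73) above it, and JUN sits at -0.03.

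ATF3, a stress-induced factor that pairs with JUN proteins, was read by 3 probes, of which the tested pair differed in sign. The brightest, ILMN_2374865, had signals of 1646, 1770.1 and 1579 after siP/CAF and of 1622, 1287 and 1725 in control cells. It differed by 0.16 on the log2 scale, with an interval from -0.17 to 0.48. A dim probe, ILMN_1661109, which the platform assigns to another ATF3 transcript record, had signals of 102, 81.9 and 95.8 after siP/CAF and of 125, 108 and 112 in control cells. It was detected on 2 siP/CAF and 3 control arrays, differed by -0.66 and was not called (limma, Benjamini-Hochberg adjusted p = 0.0782). The third ATF3 probe was detected on 0 arrays, with signals between 69.3 and 85.9.

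BATF3, a compact factor without an activation domain that is best known from dendritic cells, had signals of 324, 316 and 444 after siP/CAF and of 358, 333 and 230.2 in control cells. The groups overlapped, and the log2 difference of 0.38 had a wide interval, from -0.26 to 1.02. The difference depended on single arrays: it was 0.08 without control array 3, which held the lowest value, 0.62 without control array 2 and 0.15 without siP/CAF array 3.

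MAFF, a small MAF protein, rose on 1 of its 3 probes, which was not the brightest. On probe ILMN_1680139 MAFF had signals of 244, 229.9 and 251 after siP/CAF and of 220.2, 139 and 171 in control cells. The lowest siP/CAF array lay above the highest control array. On the log2 scale this probe averaged 7.57 ± 0.14 after siP/CAF and 6.84 ± 0.25 in control cells (SD, n = 3 each), a difference of 0.73 with an SE of 0.17, or 1.66-fold (limma, Benjamini-Hochberg adjusted p = 0.0439). The MAFF call was lost when any 1 array was left out (adjusted p from 0.0518 to 0.144). The brightest MAFF probe, ILMN_2322375, had 576, 549 and 388 after siP/CAF and 438, 348 and 438 in control cells, differed by 0.42 and was not called (limma, Benjamini-Hochberg adjusted p = 0.230). The third MAFF probe was detected on 0 arrays, with signals between 76.9 and 88.7 after siP/CAF and between 57.6 and 85.9 in control cells.

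Counted over the family, 1 tested probe was called higher and 2 lower, against 2.06% and 2.52% of all tested probes. With each gene read by its brightest tested probe, 2 of 9 family genes were lower and 0 higher, against 3.11% and 2.28% of 11806 tested genes (5.39% in either direction). By unadjusted p, 6 of the 11 probes were under 0.05, against 18.9% of all tested probes. Normalized values of the groups did not overlap for 9 of the 11 probes, 4 higher and 5 lower after siP/CAF, against 24.8% of all tested probes. On the deposited signals, before normalization, this held for 4 of the 11, against 15% of all tested probes. The other probes among the 9 separated after normalization, not before it. The family and the 5 related lists below were chosen with earlier results of these data known. Their shares against the whole array are therefore descriptions and not tests.

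Profiles most like those of FOS and JUN were sought over all tested genes as the smallest root-mean-square distance between log2 values centred on their mean over the 6 arrays. Nearest to FOS were EFHD1 (0.036), CCM2 (0.0485) and THEM6 (0.0575), with log2 differences of -0.60, -0.63 and -0.50. These lie near the difference of FOS by construction, since the distance uses the same values of the same 6 arrays. Nearest to JUN were GLT8D1 (0.0215), PTPA (0.0337) and GBP2 (0.0367).

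Among the factors that pair with the family, none passed the test on its brightest probe. Of 27 partners and related factors, 24 had a named probe and 18 were tested. By limma 0 were called on their brightest probe, against 5.39% of all tested genes. An unadjusted p under 0.05 was found for 5 of the 18, against 20.6% of all tested genes. Of these 5, ATF5 measured 0.57, BATF2, a relative of BATF3, 0.46 and ATF2, a JUN partner on the CRE, 0.40. NFE2L3 measured -0.44 and CEBPD -0.41. BATF2 was close to background, with signals between 85.5 and 119.2 that overlapped between the groups before normalization. The list's median was -0.02. Of 26 MAP kinases and factors upstream, a list that also held FBXW7, 20 were tested. On the brightest probe 0 were called, against the same 5.39%. An unadjusted p under 0.05 was found for 1 of the 20, against the same 20.6%, and the median was -0.03. Dimmer probes of 2 of these genes rose. MAP2K3, a kinase that activates p38, rose by 0.65 on 1 dimmer probe, against 0.39 on its brightest, and ELK4, a partner of SRF on immediate-early promoters, rose by 0.74 on 1 dimmer probe, against -0.01 on its brightest (limma, Benjamini-Hochberg adjusted p = 0.0328 and 0.0352). Each of these calls was kept in 1 of the 6 fits that left out an array. Both were lost with arrays scaled to a common median, and with a replicate block over the 4 arrays numbered 1 and 2. The ELK4 call was also lost without background correction and with no filter on dim probes (limma, Benjamini-Hochberg adjusted p = 0.0507 and 0.0518). Other ELK4 probes measured 0.34 and -0.66 without a call. RPS6KA3, the growth factor kinase RSK2, measured 0.33.

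Genes listed as feedback inhibitors of MAP kinases were called in both directions. The list held DUSP, SPRY and SPRED genes and also ZFP36, ZFP36L1 and ZFP36L2. Of 16 tested genes 3 rose and 1 fell, against 2.28% and 3.11% of all tested genes, and their median was 0.10. DUSP1, a nuclear phosphatase that inactivates JNK and p38, had signals of 5472, 6665 and 6375 after siP/CAF and of 2510, 2076 and 2810.1 in control cells. It rose by 1.33 on the log2 scale, 2.52-fold (limma, Benjamini-Hochberg adjusted p = 0.00206). DUSP14 rose by 0.92, with signals of 4144, 4210.2 and 4429 after siP/CAF and of 2771, 1901 and 2260 in control cells. DUSP5, a nuclear phosphatase of ERK, rose by 0.77. SPRY4, an inhibitor of receptor signalling to ERK, fell by 0.64, with signals of 276, 277 and 248 after siP/CAF and of 488, 298 and 445 in control cells (limma, Benjamini-Hochberg adjusted p = 0.0463). DUSP1 and DUSP14 kept their calls when any 1 array was left out, DUSP5 kept its call in 1 of those 6 fits, and SPRY4 in 0 of 6.

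Among other immediate-early genes, of 28 listed and 21 tested, 4 rose and 0 fell, against 2.28% and 3.11% of all tested genes. An unadjusted p under 0.05 was found for 12 of the 21, against 20.6% of all tested genes, and the median was 0.41, against -0.01 over all tested genes. As the list was chosen with earlier results of these data known, these shares are a description with no test. CCN1 rose by 1.40 and CCN2 by 1.11, both secreted matricellular proteins, GADD45B, a stress-induced regulator of p38, by 1.22, and IER2 by 0.65 (limma, Benjamini-Hochberg adjusted p = 0.00299, 0.00297, 0.00407 and 0.0383). A dimmer CCN2 probe rose by 1.65. IER2 had signals of 258, 276 and 267 after siP/CAF and of 228, 158 and 215 in control cells, and kept its call in 1 of the 6 fits without an array. EGR1, which responds to the same SRF signals as FOS, measured -0.19 and was not called, with signals of 608, 570.4 and 489.8 after siP/CAF and of 791, 500 and 733 in control cells; it was singled out after its value was seen.

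**Figure D3:**
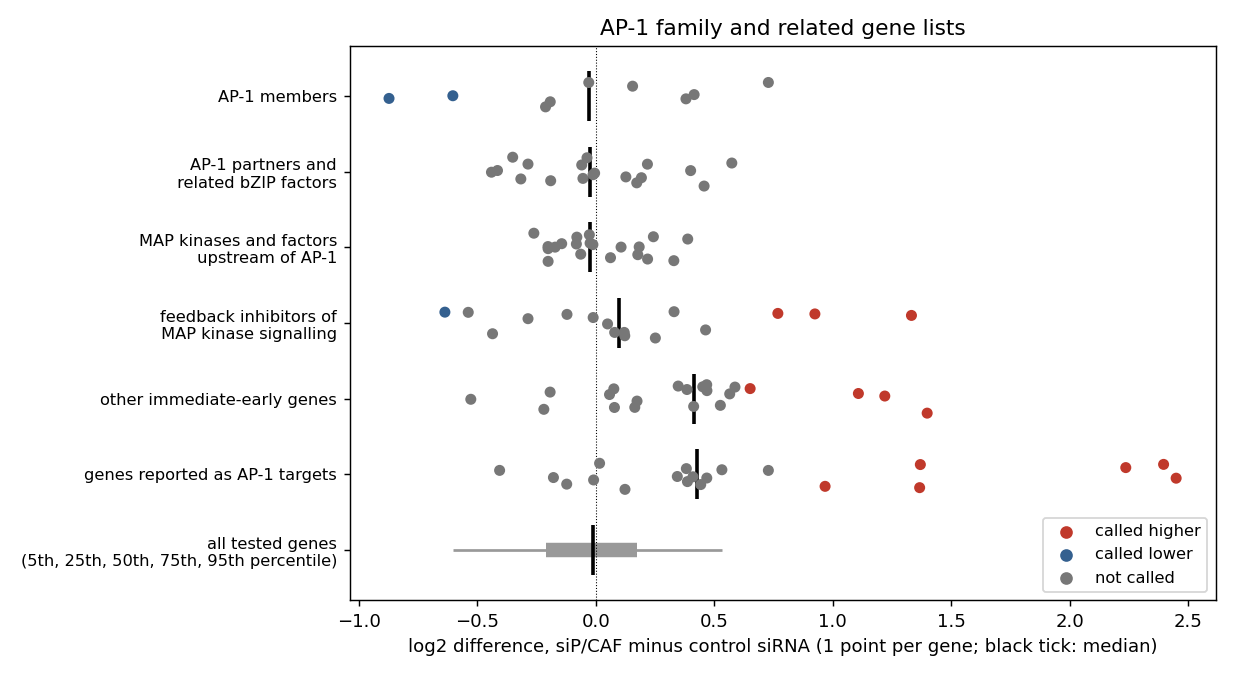
Log2 difference, siP/CAF minus control siRNA (horizontal axis), of each tested gene of the AP-1 family and 5 related lists, 1 point per gene on its brightest tested probe, with the median as a black tick and the spread of all tested genes in the lowest line. The median is -0.03 for the family, 0.41 for other immediate-early genes and 0.43 for genes reported as AP-1 targets, a list that also holds FOSL1. The family and lists were chosen with earlier results of these data known.

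Genes reported elsewhere as AP-1 targets were called in 1 direction. Of 30 listed, 29 had a named probe, 20 were tested, 6 rose and 0 fell, against 2.28% and 3.11% of all tested genes. Their median was 0.43, and 12 had an unadjusted p under 0.05, against 20.6% of all tested genes. This list too was chosen with earlier results of these data known, so these shares are a description with no test. The 6 were PLAU, PLAUR, HBEGF, CXCL8, EDN1 and MMP9. MMP9 passed the detection filter through the siP/CAF arrays alone, and with detection required on all 6 arrays the count was 5. PLAU, the urokinase plasminogen activator, had signals of 7762, 8272 and 6534 after siP/CAF and of 3469, 2217 and 3238 in control cells, and rose by 1.37. Its receptor gene PLAUR rose on all 3 of its tested probes, by 1.37, 1.06 and 1.24; on the brightest it had signals of 638, 601 and 746 after siP/CAF and of 399.5, 266 and 261 in control cells. HBEGF, an EGF receptor ligand, had signals of 1855, 1867 and 1696 after siP/CAF and of 1058, 773 and 1162 in control cells, and rose by 0.97 (limma, Benjamini-Hochberg adjusted p = 0.00751).

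The chemokine gene CXCL8 rose by 2.45 on its brightest probe and by 1.34 on a dimmer one, and the peptide gene EDN1 rose by 2.24. Without background correction these CXCL8 probes measured 1.73 and 0.89, and EDN1 1.82. The protease gene MMP9 had signals of 180, 180.3 and 168 after siP/CAF and of 72.6, 62.1 and 72.3 in control cells, where it was detected on 0 of 3 arrays. Its normalized log2 difference was 2.40, but the control signals lay below the dimmest detected probes, which read between 84.9 and 95.7 per array. With control values raised to the level of the dimmest detected probe, the rise was at least 3.38-fold. Without background correction the log2 difference was 1.37. As MMP9 entered the test only through the group in which it is high, its p-values are not given. PLAU, PLAUR, HBEGF, CXCL8 and EDN1 kept their calls under every alternative. The list holds no test of AP-1 binding, and CCND1, also on it, measured -0.41 without a call.

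Some markers of fibroblasts and smooth muscle moved along with these genes. Of 9 such markers 7 were tested, of which 3 rose (ACTA2, CNN1 and PDGFRB) and 4 were not called (COL1A1, COL1A2, COL3A1 and THY1). For comparison with each marker list, 2.28% of all tested genes were called higher and 3.11% lower. The median log2 difference of the 7 was 0.47, and 5 of them had an unadjusted p under 0.05, against 20.6% of all tested genes. Their summed linear level lay between 4006 and 4223 after siP/CAF and between 3001 and 3844 in control cells. Such sums are carried mostly by the brightest genes of a list. PDGFRA and the smooth muscle myosin gene MYH11 were detected on 0 arrays. Of 9 muscle and rhabdomyosarcoma markers 8 were tested and 1 was called, MYOG, which fell. The median of the 8 was -0.33, and 4 of them had an unadjusted p under 0.05, against the same 20.6%. Their summed level lay between 22607 and 27488 after siP/CAF and between 31570 and 42699 in control cells. Of 5 epithelial markers 1 was tested (KRT8), with summed levels between 29.6 and 45.6 after siP/CAF and between 27.7 and 37.25 in control cells. Of 8 blood and endothelial markers 2 were tested and PECAM1 fell by 0.59, with summed levels between 439.8 and 447 after siP/CAF and between 598 and 624 in control cells. Their part in the results above was not tested.

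**Figure D4:**
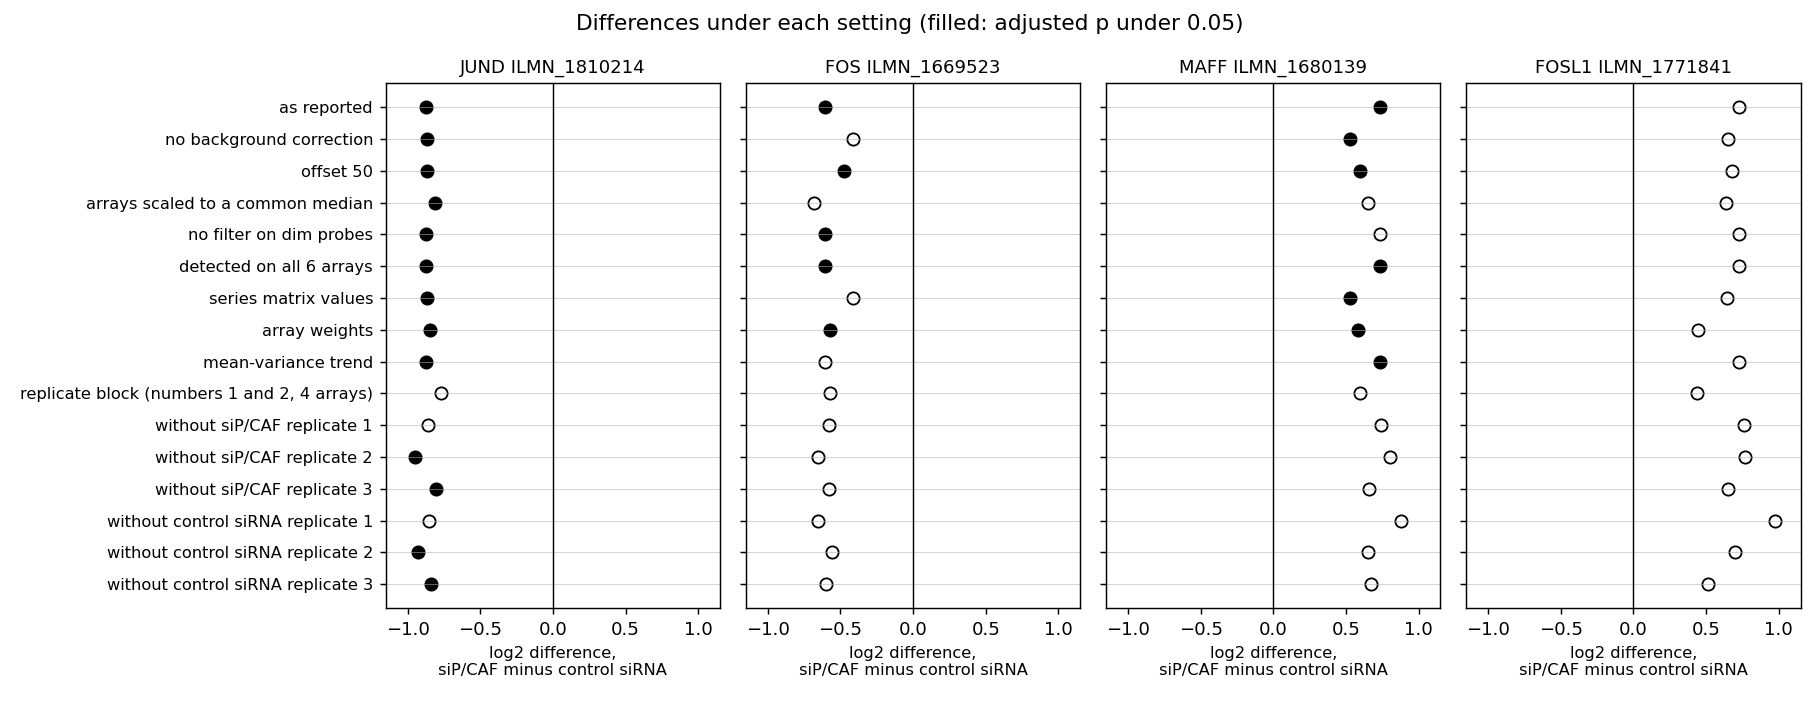
Log2 difference, siP/CAF minus control siRNA (horizontal axes), of JUND, FOS, 1 MAFF probe and FOSL1 under the setting reported and each of 15 alternatives (rows); filled points have an adjusted p under 0.05. JUND is filled in 12 of the 15 alternatives, MAFF in 6, FOS in 4 and FOSL1 in 0, and no point of these 4 probes crosses 0.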

How the data were processed

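RNA was read on 1-colour Illumina HT-12 arrays, 1 per sample, per the labels' protocols. The deposited table gives, per probe and array, a bead signal (intensity, linear scale, not normalized between arrays, per the file headers) and a score headed as a p value, read from its values as 1 minus the detection p. The deposited series matrix holds log2 values: it equalled median-centred log2 values of the quantile-normalized signals within 0.00759 for all 47323 probes, which settles its scale, centring and direction; its column medians were 0. The software behind both was not given in the sources used here.

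Signals were background-corrected by normexp from the detection p, with an offset of 16, quantile normalized and log2 transformed (neqc, limma 3.58.1, R 4.3.3). Testing by limma was limited to probes detected at p under 0.05 on 3 or more arrays (lmFit, eBayes, no block), with Benjamini-Hochberg adjustment over 21232 probes and a threshold of 0.05. Error values are SD over 3 arrays, and the number of arrays limits the precision. Names came from the platform annotation, updated through gene identifiers (30113 probes with 1 symbol, 8 with several, 17202 with none). Genes were read by the tested probe with the highest mean signal; dimmer probes are given where they differ. The table pairs no genome build, so coordinates are those of the RefSeq promoter windows.

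Genes named were every family probe, KAT2B, and in each of 5 related lists the called genes, or the 3 with the smallest p where fewer were called; for FOS and JUN the 3 nearest profiles were added. Other genes were named after their values were seen. The members and lists were chosen with earlier results of these data known. Alternatives covered background, offset, scaling, filter, the matrix values, array weights, the variance prior, a replicate block and leaving out each array.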

Additional observations from a re-analysis of the deposited data

How the results depend on the processing

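Over 15 alternatives, 133 of 164 values of the 11 tested family probes kept their direction and side of the threshold, 23 lost a call, 2 gained one and 6 changed sign. Among them 1 family probe was called higher as reported; this was 0 with arrays scaled to a common median, with no filter on dim probes and with the replicate block, and 2 with array weights. 2 were called lower as reported; this was 1 with no background correction, the series matrix values, arrays scaled to a common median or a mean-variance trend, 0 with the replicate block, and 3 with array weights. Leaving out each array gave 0 to 0 higher and 0 to 1 lower. The whole array had 972 calls as reported, 2865 with array weights, and 301 to 1084 with an array left out. Dropping siP/CAF array 1, 2 or 3 gave 301, 386 and 496 calls, and dropping control array 1, 2 or 3 gave 346, 534 and 1084. Those fits used fewer arrays; otherwise the cause was not tested.

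For JUN and ELK4 signs turned at values near 0. JUN measured 0.016 with arrays scaled to a common median, 0.054 with array weights and 0.042 with the replicate block, and from -0.13 to 0.035 with an array left out (0.0084 without control array 2 and 0.035 without control array 3). BATF3, at 0.38 as reported, measured -0.15 with the replicate block. ELK4 on its brightest probe lay between -0.14 and 0.084 with an array left out (0.084, 0.059 and 0.045 without siP/CAF array 1, control array 1 or control array 2). The numbers 1 and 2 stand in both groups' titles. Deviations of same-numbered arrays from their group means had correlations of -0.147 and -0.405. With only 2 such pairs, these values cannot decide whether same-numbered arrays were paired. With that replicate block, over the 4 arrays that carry these numbers, 688 probes were called, JUND measured -0.77 (adjusted p = 0.0636), FOS -0.57 (0.0920) and MAFF 0.60 (0.0988) by limma. FOS moved without background correction, to -0.41 (adjusted p = 0.0577).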

Other observations

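With array weights, which gave siP/CAF array 1 a weight of 2.67 and control array 3 a weight of 0.289, 5 family probes were called: the 3 called as reported, the brightest MAFF probe at 0.55 (limma, Benjamini-Hochberg adjusted p = 0.0335) and the dim ATF3 probe at -0.66 (adjusted p = 0.0386). With no filter on dim probes, the probes left out of the test measured -0.13 for FOSB, 0.03 for ATF3 and 0.31 for MAFF, none of them called (limma, Benjamini-Hochberg adjusted p = 0.898, 0.962 and 0.486).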
